A study of Mus musculus with 10 samples.

Results

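The *Sprr2* genes form a cluster on mouse chromosome 3 and code for small proline-rich proteins. They were chosen by gene name, which found 9 members (*Sprr2a1*, *Sprr2a2*, *Sprr2a3*, *Sprr2b*, *Sprr2d*, *Sprr2e*, *Sprr2f*, *Sprr2g* and *Sprr2h*) among the 29268 genes of the deposited table. They were measured by RNA-seq of the uterus of 5 HSD17B1TG mice and 5 WT mice, all aged 4 months, with 1 library per mouse. Per the methods of the study, HSD17B1TG mice are of the FVB/N strain and are heterozygous for a transgene in which the chicken beta actin promoter with a viral enhancer drives human HSD17B1 cDNA in all tissues. HSD17B1 is the enzyme that makes estradiol from estrone. The HSD17B1TG mice do not cycle. The WT mice were taken at random phases of the estrous cycle, and the phase of each mouse is not in the labels. Whole uterus was used, so fewer cells of a type and less RNA per cell cannot be told apart.

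Small proline-rich proteins are precursors of the cornified envelope, the layer of cross-linked protein beneath the membrane of squamous epithelial cells. Transglutaminases join them to each other and to other envelope proteins through glutamine and lysine residues at their ends, and the proline-rich repeats in between give the sheet its flexibility. In the uterus the epithelium is simple, not squamous, yet *Sprr2* genes are known there as genes that estrogen induces in the epithelial cells.

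The 9 genes lie on the plus strand between positions 92215799 and 92387324 of chromosome 3 (GRCm38), in the order a1, a2, a3, b, d, e, f, g and h. All have 2 exons, and in the annotation the coding bases of each printed gene lie in the second exon. *Sprr2f* (ENSMUSG00000050635, chr3:92365187-92366442) carried most of the reads of the cluster. *Sprr2b* (ENSMUSG00000050092, chr3:92316620-92318085) and *Sprr2d* (ENSMUSG00000042212, chr3:92339140-92340873) were the members called different between the genotypes. *Sprr2g* (ENSMUSG00000046203, chr3:92373915-92375229) was the only tested member with a lower fitted level in HSD17B1TG. The coding sequences of these 4 genes are shown because the results turn on them. They are from GENCODE M21 (GRCm38, plus strand, 5′ to 3′), at chr3:92365896-92366126, chr3:92317449-92317745, chr3:92340254-92340511 and chr3:92374640-92374871 in the order printed. Capitals mark stop codons in the frame of the first ATG.
Sprr2f: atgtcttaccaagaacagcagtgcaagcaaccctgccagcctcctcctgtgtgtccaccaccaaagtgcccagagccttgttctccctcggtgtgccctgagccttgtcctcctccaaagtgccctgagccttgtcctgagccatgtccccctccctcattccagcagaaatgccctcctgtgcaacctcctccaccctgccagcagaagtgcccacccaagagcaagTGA
Sprr2b: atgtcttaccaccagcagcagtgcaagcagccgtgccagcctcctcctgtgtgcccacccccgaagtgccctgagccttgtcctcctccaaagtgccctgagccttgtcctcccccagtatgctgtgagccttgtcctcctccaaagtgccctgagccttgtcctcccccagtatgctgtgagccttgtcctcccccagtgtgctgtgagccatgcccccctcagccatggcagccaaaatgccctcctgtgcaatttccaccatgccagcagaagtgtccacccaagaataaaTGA
Sprr2d: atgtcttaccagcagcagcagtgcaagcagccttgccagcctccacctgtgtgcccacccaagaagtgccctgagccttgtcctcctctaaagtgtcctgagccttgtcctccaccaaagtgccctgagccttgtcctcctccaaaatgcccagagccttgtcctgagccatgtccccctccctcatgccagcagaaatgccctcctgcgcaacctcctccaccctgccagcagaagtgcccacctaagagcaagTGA
Sprr2g: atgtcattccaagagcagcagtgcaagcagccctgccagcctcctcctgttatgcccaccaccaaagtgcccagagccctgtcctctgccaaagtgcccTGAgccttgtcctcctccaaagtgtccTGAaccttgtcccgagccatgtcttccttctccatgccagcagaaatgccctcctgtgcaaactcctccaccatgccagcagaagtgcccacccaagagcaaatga

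Read from the ATG, proline codons made up 30 of the 77 codons of *Sprr2f* (39.0%), 41 of the 99 of *Sprr2b* (41.4%) and 35 of the 86 of *Sprr2d* (40.7%), the last codon of each being the stop. *Sprr2g* is annotated as a polymorphic pseudogene. Its annotated coding stretch of 232 bases is not a multiple of 3, and read from the ATG it meets a stop at codon 34, with 2 stops in that frame. The reference genome is of the C57BL/6J strain, and whether the FVB/N mice of the study share this reading frame was not tested. The coding sequence of *Sprr2f* was identical to that of *Sprr2e* at 90.1% of aligned positions, to that of *Sprr2g* at 88.4%, to that of *Sprr2d* at 81.0% and to that of *Sprr2b* at 66.3%.

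The near identity of some members bears on their counts. The coding sequences of *Sprr2a1* (ENSMUSG00000078664) and *Sprr2a2* (ENSMUSG00000068893) were identical over their whole length, and that of *Sprr2a3* (ENSMUSG00000074445) matched them at 98.8%. Stretches of 150 bases, the length of a sequenced read end, were taken from the longest transcript of each gene. Of these, 89.6% in *Sprr2a1* and 89.0% in *Sprr2a2* occurred unchanged in another gene, against 19.0% in *Sprr2a3*. The annotated span of *Sprr2a2* also contains part of *Sprr2a1*. The counts of these 3 genes are therefore uncertain one by one. If the counting dropped shared reads, their sum and their part of the cluster would be too low as well. No stretch of that length was shared for the other 6 members, although similar sequence with single differences remains.

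**Figure D1:**
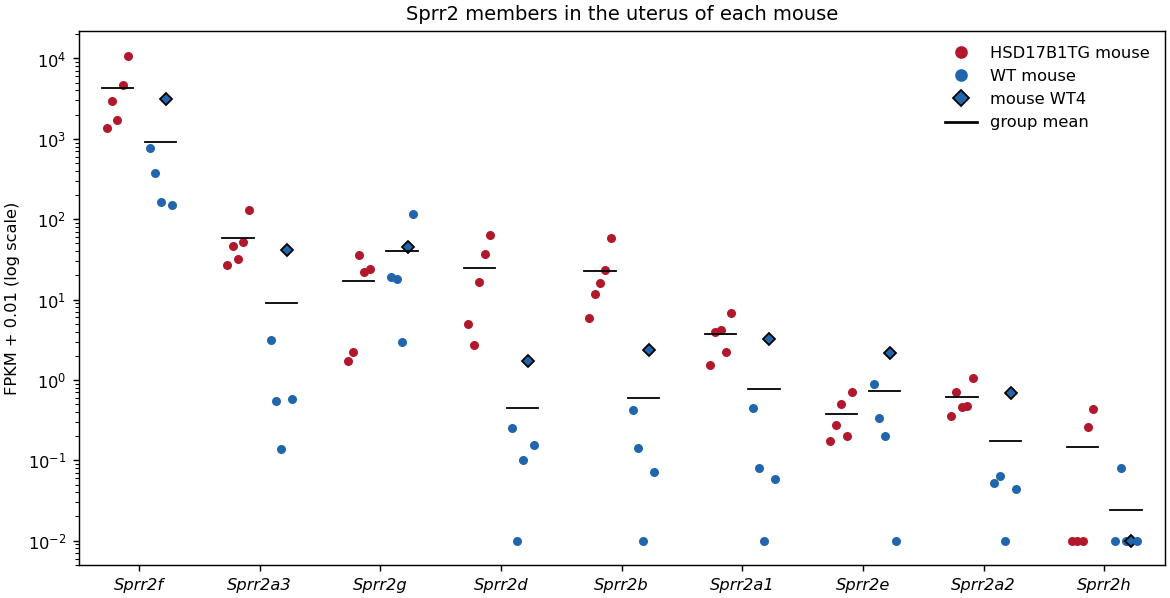
FPKM of the 9 members in each mouse, with 0.01 added, on a log axis. Each point is a mouse (red HSD17B1TG, blue WT), the diamond is WT4 and the line is the group mean. *Sprr2f* is the highest member in every mouse, the red points of *Sprr2b* and *Sprr2d* lie above all blue ones, and WT4 lies near the red points for *Sprr2f* and *Sprr2a3*.

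*Sprr2f* was by far the most abundant member in both genotypes. Its FPKM in HSD17B1TG were 1345 in TG1, 2918 in TG2, 1693 in TG3, 4736 in TG4 and 10884 in TG5, a mean of 4315 ± 3905 (SD, n = 5). In WT they were 772.5 in WT1, 372.5 in WT2, 165.8 in WT3, 3104 in WT4 and 149.0 in WT5, a mean of 912.7 ± 1250 (SD, n = 5). The HSD17B1TG mice all lay above 4 of the WT mice, but WT4 lay above 3 of the HSD17B1TG mice. *Sprr2f* was the gene with the 4th highest FPKM of the whole uterine library in TG5, where it took 0.566% of all counts, and the 247th in WT5, where it took 0.00967%.

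The difference in *Sprr2f* did not pass the test with all mice. In edgeR's quasi-likelihood test, adjusted by Benjamini-Hochberg over the 16993 genes tested, HSD17B1TG differed from WT by a log2 fold change of 2.25 ± 0.92 (SE), with an unadjusted p of 0.0328 and an adjusted p of 0.153. Without WT4 it was 3.57 (adjusted p = 0.0196 in edgeR), and without TG5 it was 1.56 (adjusted p = 0.336 in edgeR). Within HSD17B1TG the highest mouse had 8.09 times the FPKM of the lowest, and within WT 20.8 times.

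*Sprr2b* and *Sprr2d* were upregulated in HSD17B1TG. A gene was called when its adjusted p was under 0.05, its fold change over 2 and its mean FPKM over 1 in either genotype. By this rule 2 of the 9 members, both of them these genes, were called higher and none lower, beside 2.05% of all tested genes called higher and 1.97% lower. Of the members, 7 had enough counts for the test, and 3 of these 7 had an unadjusted p under 0.05 in edgeR, beside 25.8% of all tested genes in either direction. In the same 2 members every HSD17B1TG mouse lay above every WT mouse in FPKM, which held for 4.04% of the tested genes. Both calls were lost in the fits without TG2, TG4, TG5, WT1, WT2, WT3 or WT5, where the adjusted p in edgeR reached at most 0.0747 for *Sprr2b* and 0.0775 for *Sprr2d*. The unadjusted p in these edgeR fits was at most 0.00242 for *Sprr2b* and 0.00236 for *Sprr2d*, against 0.000597 and 0.000587 with all mice. The share of all tested genes called higher was 0.533% or less in them.

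*Sprr2b* had 5.82 FPKM in TG1, 11.7 in TG2, 15.9 in TG3, 23.5 in TG4 and 57.5 in TG5. In WT it had 0.415 in WT1, 0.134 in WT2, 0 in WT3, 2.35 in WT4 and 0.0623 in WT5. The lowest HSD17B1TG mouse was thus above the highest WT mouse. The group means were 22.9 ± 20.4 and 0.592 ± 0.994 FPKM (SD, n = 5 each), and *Sprr2b* differed by 5.23 ± 1.09 (SE) on the log2 scale (edgeR, adjusted p = 0.0295). These values rest on 85 to 702 counts per HSD17B1TG mouse and on 0 to 38 per WT mouse.

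*Sprr2d* had 4.96 FPKM in TG1, 2.70 in TG2, 16.3 in TG3, 36.7 in TG4 and 63.8 in TG5. In WT it had 0.239 in WT1, 0 in WT2, 0.0911 in WT3, 1.71 in WT4 and 0.143 in WT5. Again WT4 was the highest WT mouse and did not reach the lowest HSD17B1TG mouse. The group means were 24.9 ± 25.6 and 0.436 ± 0.715 FPKM (SD, n = 5 each), a difference of 5.78 ± 1.20 (SE) on the log2 scale (edgeR, adjusted p = 0.0295). The counts behind them were 32 to 676 in HSD17B1TG and 0 to 24 in WT.

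**Figure D2:**
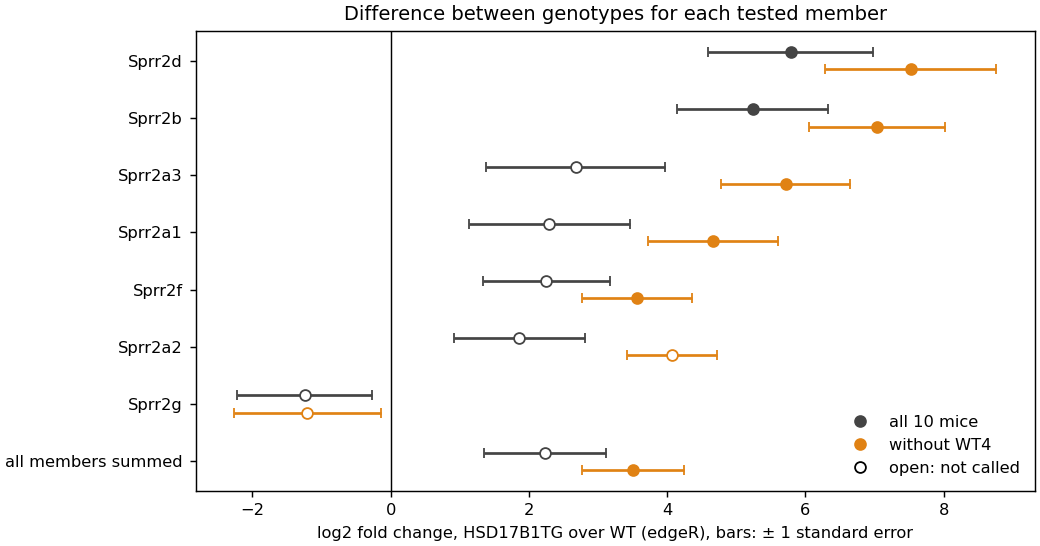
Log2 fold changes of the 7 tested members and of the sum of the cluster between HSD17B1TG and WT in edgeR, with bars of 1 standard error, for all 10 mice (grey) and without WT4 (orange). Filled points were called, open ones were not, and *Sprr2g* is the only member below 0.

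The 3 *Sprr2a* genes had higher means in HSD17B1TG but overlapped between the genotypes, and none was called in edgeR with all mice. *Sprr2a3*, the second most abundant member in HSD17B1TG, had 26.8, 47.0, 32.4, 52.5 and 131.2 FPKM in TG1 to TG5. In WT1 to WT5 it had 3.10, 0.529, 0.129, 41.4 and 0.576 FPKM. WT4 alone among the WT mice reached the range of HSD17B1TG, and it lay above 2 of these mice. The log2 fold change was 2.67 ± 1.30 (SE, edgeR, adjusted p = 0.223), and 5.71 without WT4 (adjusted p = 0.00721 in edgeR). *Sprr2a1* and *Sprr2a2* had means of 3.72 ± 2.03 and 0.601 ± 0.274 FPKM in HSD17B1TG, against 0.759 ± 1.40 and 0.162 ± 0.291 in WT (SD, n = 5 each). Their log2 fold changes were 2.29 and 1.86 (adjusted p = 0.241 and 0.239 in edgeR), and 4.66 and 4.07 without WT4 (adjusted p = 0.0145 and 0.00661 in edgeR), where *Sprr2a2* was not called because its mean FPKM was under 1. With the counts of the 3 genes added to 1 row, the log2 fold change was 2.64 (adjusted p = 0.226 in edgeR). This sum does not depend on how counted reads were split among the 3 genes, but it would lack any shared reads that were dropped. The lengths that the FPKM of these 3 genes use are 3003, 2910 and 2883 bases, against 609 for *Sprr2f*. The annotation also holds shorter transcripts of 722 bases for *Sprr2a2* and 682 for *Sprr2a3*, and a shorter length would give a higher FPKM. Which transcripts the reads came from was not tested.

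*Sprr2g* was the only tested member with a lower fitted level in HSD17B1TG. Its FPKM were 1.73, 2.21, 35.8, 22.2 and 23.8 in TG1 to TG5, and 19.1, 17.9, 2.95, 44.7 and 117.0 in WT1 to WT5. The highest mouse was WT5, which had the lowest *Sprr2f* of all 10 mice, and the lowest were TG1 and TG2. WT4, the 2nd highest for *Sprr2g*, was the 3rd highest for *Sprr2f*. TG1 and TG2 lay below all WT mice and WT4 and WT5 above all HSD17B1TG mice, with the other 6 mice in the shared range, and the log2 fold change was -1.24 ± 0.98 (SE, edgeR, adjusted p = 0.456). Without WT5 it was -0.33 (adjusted p = 0.864 in edgeR).

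*Sprr2e* and *Sprr2h* were close to the limit of detection and had too few counts to enter the main test, and neither was called by edgeR without the filter or by DESeq2. *Sprr2e* had 2 to 7 counts in the HSD17B1TG mice and 0 to 29 in the WT mice, with WT4 the highest. *Sprr2h* had 3 counts in TG4, 5 in TG5, 1 in WT2 and 0 in the other mice. A count of 3, the number that a count of 0 allows for, corresponds to at most 0.202 CPM in any library, and it covers counting error only. *Sprr2e* thus had the coding sequence most like that of *Sprr2f* and at most 29 counts in a library in which *Sprr2f* had 39036.

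The tested members other than *Sprr2g* varied together from mouse to mouse. On log2 CPM over the 10 mice, Pearson's r for the 15 pairs among the 6 other tested members lay between 0.85 and 0.99. After removing the mean of each genotype it lay between 0.59 and 0.97. For the 6 pairs with *Sprr2g* it lay between -0.08 and 0.02, and between 0.30 and 0.64 after removing the genotype means, so that the ranges then overlapped. Within HSD17B1TG alone, r lay between 0.25 and 0.86 for the pairs with *Sprr2g* and between 0.39 and 0.98 for the other pairs. Within WT alone, it lay between 0.21 and 0.47 and between 0.83 and 0.997. These values describe 10 mice that share a library for each pair of genes, and the *Sprr2a* genes share reads. WT4 was the highest WT mouse for 7 of the 9 members, and TG5 was the highest of all 10 mice for 7 of the 9.

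Without WT4, 5 members were called higher (*Sprr2a1*, *Sprr2a3*, *Sprr2b*, *Sprr2d* and *Sprr2f*) beside 4.98% of all tested genes, and 6 members had every HSD17B1TG mouse above every WT mouse beside 8.51% of all tested genes. Both shares of all genes were thus also larger without this mouse. Without TG2, TG4, TG5, WT1, WT2, WT3 or WT5, no member was called, and the share of all tested genes called higher was then 0.179%, 0.347%, 0.208%, 0.533%, 0.18%, 0.377% or 0.215%. Without TG1 or TG3 the 2 members stayed called, beside 4.35% and 1.99% of all tested genes. *Sprr2b* and *Sprr2d* were each called in 3 of the 10 fits without 1 mouse, and their log2 fold changes in these fits lay between 4.55 and 7.03 and between 5.07 and 7.52. Their lowest values under any setting were 3.70 and 3.55, in limma on log2(FPKM + 1) with all mice.

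Other tools and settings called as many members or more. DESeq2 called *Sprr2b*, *Sprr2d* and *Sprr2f* (adjusted p = 0.0386 for *Sprr2f*), 3 members beside 4.48% of its tested genes, and limma voom with quality weights, which also weights each library by its fit to its group, called 5 beside 6.28%. On log2(FPKM + 1) limma called 3 members beside 2.42%, and on log2(FPKM + 0.1) 4 beside 2.8%. *Sprr2a3* was among the called members in all 3 of these limma fits, and *Sprr2a1* with voom and on log2(FPKM + 0.1). The count was again 2 in edgeR with the size factors of DESeq2 (beside 2.02%), with library totals (1.57%), with no filter on low counts (0.772%), with at least 1 CPM in 5 mice (2.08%), and on the adjusted p alone, where 3.14% of all tested genes passed as higher and 5.81% in either direction.

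**Figure D3:**
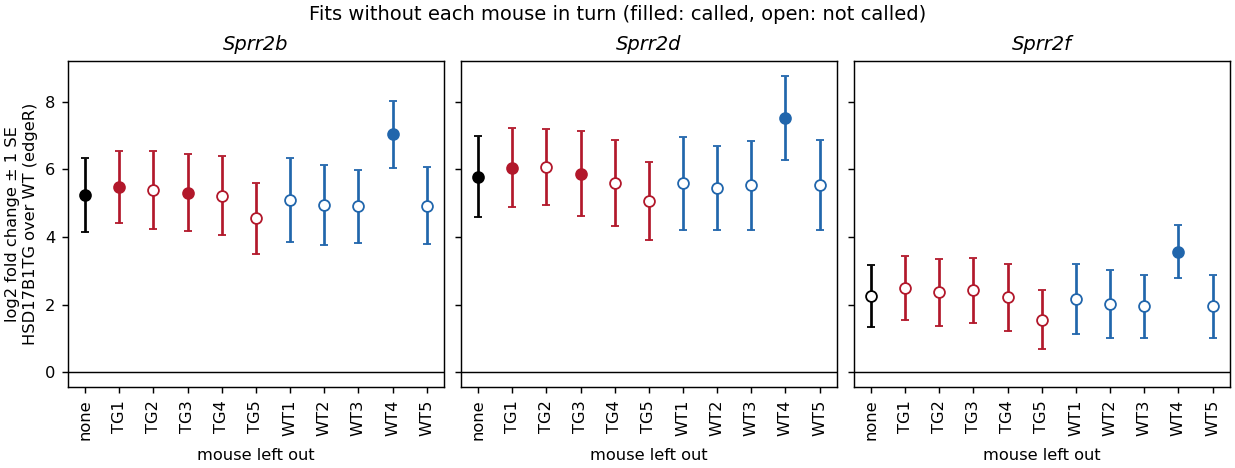
Log2 fold changes of *Sprr2b*, *Sprr2d* and *Sprr2f* with bars of 1 standard error in edgeR fits with no mouse left out (black) and without the mouse named on the x axis (red HSD17B1TG, blue WT). Filled points were called. *Sprr2b* and *Sprr2d* are filled without TG1, TG3 or WT4, and *Sprr2f* without WT4 alone.

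The summed counts of the 9 members were 16982, 33732, 22308, 50014 and 111045 in TG1 to TG5, and 12153, 4574, 1668, 42435 and 3460 in WT1 to WT5. The cluster thus took between 0.0873% and 0.609% of the counts of an HSD17B1TG library and between 0.0113% and 0.204% of a WT library. The log2 fold change of the sum was 2.23 ± 0.88 (SE, edgeR, adjusted p = 0.140), and 3.50 without WT4 (adjusted p = 0.0167 in edgeR). The sum is largely *Sprr2f*, which made up 87.0% to 93.0% of these counts in HSD17B1TG and 92.0% to 97.6% in WT1 to WT4, but 53.7% in WT5. Without *Sprr2f* the sum had a log2 fold change of 2.0 (adjusted p = 0.190 in edgeR).

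The composition of the cluster differed between the genotypes in *Sprr2b* and *Sprr2d*. Per 1000 counts of *Sprr2f* in the same mouse there were 5.57, 5.14, 12.1, 6.39 and 6.80 counts of *Sprr2b* in TG1 to TG5, and 0.692, 0.464, 0, 0.973 and 0.538 in WT1 to WT5. In WT4, whose *Sprr2f* lay in the range of HSD17B1TG, the *Sprr2b* proportion stayed with the other WT mice. As a share of the summed FPKM of the cluster, *Sprr2b* made up 0.538% ± 0.199 in HSD17B1TG and 0.0366% ± 0.0279 in WT, and *Sprr2d* 0.536% ± 0.323 and 0.0382% ± 0.0237 (SD, n = 5 each). For both shares the genotypes did not overlap (two-sided exact permutation test, p = 0.00794 each, the smallest p that 5 against 5 mice allow). Relative to *Sprr2f*, *Sprr2d* did overlap, with 1.04 counts per 1000 in TG2 and 1.08 in WT5 (exact permutation p = 0.0159 on the log2 ratio).

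Shares of all 9 members were compared, and the p-values given for them are not adjusted. *Sprr2a3* made up 1.51% ± 0.377 of the cluster in HSD17B1TG and 0.422% ± 0.501 in WT (exact permutation p = 0.0238), with WT4 at 1.29% the highest WT mouse. As shares of the summed raw counts, which are not divided by gene length, the means of *Sprr2a3* were 6.70% and 1.92% and those of *Sprr2f* 90.9% and 86.5%. *Sprr2g* made up 0.572% ± 0.808 in HSD17B1TG and 10.8% ± 18.5 in WT (exact permutation p = 0.0238), the WT mean being 2.52% without the 43.8% of WT5. *Sprr2e* made up 0.0117% ± 0.00928 and 0.0749% ± 0.0460 (exact permutation p = 0.0476), and its p lay between 0.0794 and 0.0952 without any 1 mouse other than WT5. The share of *Sprr2f* was 96.7% ± 1.46 and 88.6% ± 18.3 (exact permutation p = 0.571), and without WT5 the WT mean was 96.8%. For *Sprr2a1*, *Sprr2a2* and *Sprr2h* the exact permutation p was 0.0635, 0.190 and 1, and that of *Sprr2a1* was 0.0317 without TG4 or without WT4. Shares within 1 sum depend on each other, and those of *Sprr2e* and *Sprr2h* rest on few counts.

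**Figure D4:**
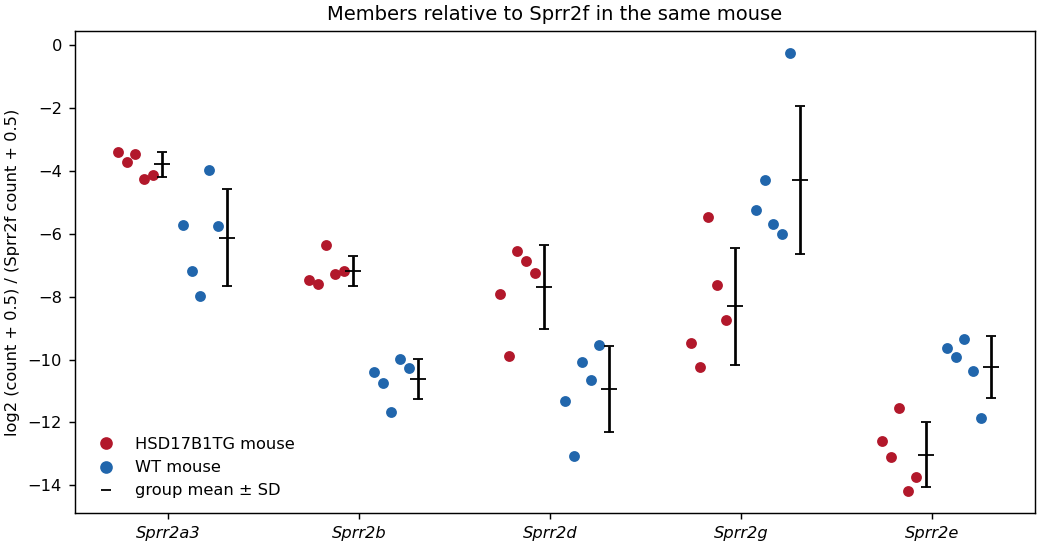
Log2 ratio of the count of a member to the count of *Sprr2f* in the same mouse, with 0.5 added to both, for 5 members. Points are mice (red HSD17B1TG, blue WT) and black marks give the group mean with its SD. *Sprr2b* is separated between the genotypes, *Sprr2a3* and *Sprr2d* are higher and *Sprr2g* and *Sprr2e* lower in HSD17B1TG on average, with some overlap.

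The upstream sequences of *Sprr2f*, *Sprr2d* and *Sprr2e* are shown because *Sprr2d* and *Sprr2e* are 88.9% identical there, yet *Sprr2d* had 32 to 676 counts in HSD17B1TG and *Sprr2e* 2 to 7. The sequences are the 250 bases before the RefSeq start (GRCm38.p6, plus strand, 5′ to 3′), at chr3:92364937-92365186, chr3:92338890-92339139 and chr3:92351893-92352142. Capitals mark, from left to right, an AP-1 motif (TGANTCA), an octamer (ATTTGCAT) and a TATA box (TATAAA), none of which overlaps another.
Sprr2f: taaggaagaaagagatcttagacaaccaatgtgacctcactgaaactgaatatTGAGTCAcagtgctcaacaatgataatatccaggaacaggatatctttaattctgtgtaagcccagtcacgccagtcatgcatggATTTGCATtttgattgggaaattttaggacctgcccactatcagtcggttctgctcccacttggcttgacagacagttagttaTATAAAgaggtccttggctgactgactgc
Sprr2d: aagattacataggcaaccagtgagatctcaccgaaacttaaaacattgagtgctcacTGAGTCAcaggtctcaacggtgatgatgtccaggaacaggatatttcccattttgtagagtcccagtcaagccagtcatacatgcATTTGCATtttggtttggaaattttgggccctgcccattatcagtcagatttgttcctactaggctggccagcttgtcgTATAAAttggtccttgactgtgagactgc
Sprr2e: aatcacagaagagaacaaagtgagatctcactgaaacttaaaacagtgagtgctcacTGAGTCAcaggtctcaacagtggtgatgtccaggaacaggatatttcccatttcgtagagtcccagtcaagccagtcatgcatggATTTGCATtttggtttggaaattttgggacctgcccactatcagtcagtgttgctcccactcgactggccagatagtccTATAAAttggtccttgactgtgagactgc

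RefSeq starts were matched for 8 members, all but *Sprr2g*. Searching both strands, the AP-1 motif was present in 5 of these 8 and in 6.87% of all 27025 promoter windows of the same length. The octamer was present in 5 and in 1.61% of all windows, and the TATA box in 5 and in 12.97%. The 5 members were the same for each motif (*Sprr2b*, *Sprr2d*, *Sprr2e*, *Sprr2f* and *Sprr2h*), and all 3 motifs stood together in 13 of all windows (0.0481%), which include these 5 and those of *Sprr2i* and *Sprr2k*. The TATA box lay at bases -29 to -24 before the start in all 5, and the AP-1 motif began between bases -198 and -193. The upstream sequences of *Sprr2a1* and *Sprr2a2* were identical to each other and held none of the 3.

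The members with the 3 motifs thus included the most abundant member, both called members and both members with too few counts for the main test. The RefSeq start lies inside the annotated gene span of the table for *Sprr2a1*, *Sprr2a2* and *Sprr2b*, so the windows of these members hold bases of that span. A single arm of the estrogen response element (GGTCA) was found in *Sprr2f* alone, at bases -219 to -215 on the minus strand, and in 34.9% of all windows. The full palindromic estrogen response element was in none of the 8 and in 0.0629% of all windows. The ETS core (GGAAG) was in 5 of the 8 and in 63.6% of all, the KLF motif (CACCC) in 1 and in 51.3%, and the interferon-stimulated element in 0 and in 3.04%. Matches describe the letters of these windows only.

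*Sprr1a*, a family member outside the cluster, had 8.19, 12.6, 21.3, 57.6 and 52.7 FPKM in TG1 to TG5 and 9.89, 3.27, 0, 15.02 and 1.15 in WT1 to WT5. Its log2 fold change was 2.38 ± 1.02 (SE, edgeR, adjusted p = 0.171), and it was the only tested gene of the 7 further *Sprr* genes looked for, of which 2 are listed in the table. *Sprr3*, the other, had at most 3 counts in any mouse.

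Few partners of the *Sprr2* proteins in the cornified envelope had enough counts to be tested. Of 31 further envelope genes, 13 are listed in the table and 4 passed the filter on low counts. None of the 4 was called in edgeR, their median log2 fold change was -0.22 against 0.00 over all tested genes, and limma voom called 1 higher. Involucrin (*Ivl*), a scaffold of the envelope, had a mean of 0.0996 FPKM in HSD17B1TG and 0.169 in WT, and loricrin (*Lor*), its main bulk protein in skin, 0.833 and 1.41. The cytolinkers *Evpl* and *Ppl* had mean FPKM of 6.94 and 7.99 in HSD17B1TG and of 3.24 and 6.33 in WT, with log2 fold changes of 1.10 and 0.33 (adjusted p = 0.174 and 0.639 in edgeR). Of the 8 transglutaminase genes 5 were tested and none was called in edgeR with all mice. In edgeR without WT4, 1 was called higher (beside 4.98% of all tested genes), with DESeq2 1 (4.48%) and with limma voom 2 (6.28%). *Tgm2*, the widely expressed tissue transglutaminase, was the most abundant of those named here, at 270.3 ± 87.3 FPKM in HSD17B1TG and 134.8 ± 89.8 in WT (SD, n = 5 each, adjusted p = 0.141 in edgeR). *Tgm1*, the enzyme of the skin envelope, stood at 0.352 and 0.482 FPKM.

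Of 20 epithelial markers 2 were called higher in HSD17B1TG in edgeR and 19 had a higher fitted level, with a median log2 fold change of 1.24 beside the 2.29 of the 7 tested members. With 1 mouse left out 0 to 12 were called, 12 without TG1, 8 without WT4 and 0 without TG2, TG4, TG5, WT1, WT2, WT3 or WT5, while DESeq2 called 6 and limma voom 13. Over all tested genes 2.05% were called higher and 1.97% lower with all mice. The share called higher was 4.35% without TG1, 4.98% without WT4 and 0.179% to 0.533% in the fits that called none of these markers. It was 4.48% with DESeq2 and 6.28% with limma voom. The summed level of the epithelial markers was 2900 to 13335 CPM in the HSD17B1TG mice and 1823 to 5818 CPM in the WT mice, and WT4 was the highest WT mouse here too. Of the 18 squamous epithelial markers listed, 11 were tested and 1 was called in edgeR (*Krt13*), while none was called in 8 of the 10 fits without 1 mouse. Their summed levels were 32.8 to 129.1 CPM in HSD17B1TG and 33.3 to 45.1 CPM in WT. Of 10 stromal markers 3 were called lower in edgeR, a count that lay between 0 (without TG2, TG4, TG5, WT2 or WT5) and 4 (without TG1) with 1 mouse left out, and 5 with DESeq2. Their summed levels were 4063 to 17672 CPM in HSD17B1TG and 15531 to 19476 CPM in WT. Of 10 smooth muscle markers none was called in edgeR with all mice, and all had a higher fitted level in HSD17B1TG (median log2 fold change 0.55). With 1 mouse left out the median lay between 0.06 without TG1, where 6 of the 10 were higher, and 1.31 without WT4. Their summed level was 17763 CPM in WT4 and 1623 to 6915 CPM in the other WT mice, against 3041 to 24101 CPM in HSD17B1TG, the highest in TG1. Of 12 tested leucocyte markers 1 was called higher and 1 lower in edgeR, and of 6 tested oviduct markers none. With 1 mouse left out 0 to 1 leucocyte markers were called higher and 0 to 4 lower, 4 of them without WT4 and 0 without TG4, TG5, WT1, WT2, WT3 or WT5, and 1 oviduct marker was called lower without TG1. Of 10 genes that mark the uterus 3 were called lower in edgeR (*Hoxa10*, *Hoxa11* and *Msx1*), and these are also in the list of genes induced by progesterone. The count was 0 without TG2, TG4, TG5 or WT2, 1 without WT3 or WT5, and 4 without TG1 or WT4, where 1 was also called higher. The share of counts on mitochondrial genes lay between 1.94% and 7.57% in HSD17B1TG, the highest in TG5, and between 2.58% and 3.37% in WT. The part of the cell type composition and of the mitochondrial share in the *Sprr2* values was not tested.

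Relative to the summed epithelial markers of the same mouse, the summed *Sprr2* level was on average 1.38 higher in HSD17B1TG on the log2 scale, a difference given without a test. The log2 ratio was -1.73 ± 0.80 in HSD17B1TG and -3.12 ± 0.98 in WT (SD, n = 5 each). In single mice it was -1.67, -2.12, -2.88, -1.12 and -0.89 in TG1 to TG5, and -3.08, -3.48, -4.11, -1.50 and -3.42 in WT1 to WT5. WT4 was above 3 of the HSD17B1TG mice, and the other WT mice were below all of them.

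**Figure D5:**
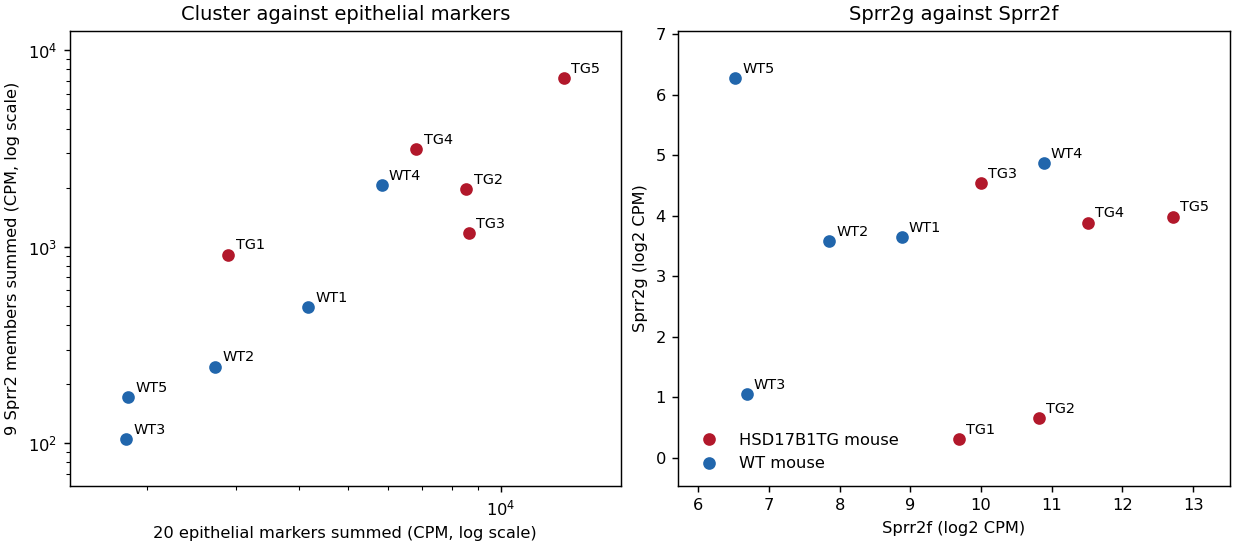
Left, summed CPM of the 9 members against summed CPM of 20 epithelial markers, both on log axes, and right, log2 CPM of *Sprr2g* against *Sprr2f*. Each point is a labelled mouse (red HSD17B1TG, blue WT). On the left the mice rise along a diagonal with WT4 among the HSD17B1TG mice, and on the right WT5 is highest for *Sprr2g* and lowest for *Sprr2f*.

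Among genes induced by estrogen in the uterus, 26 were tested, 19 had a higher fitted level in HSD17B1TG, and *Ltf* (lactoferrin) alone was called in edgeR, with 3017 ± 1678 FPKM in HSD17B1TG and 180.5 ± 165.8 in WT (SD, n = 5 each). In WT4 *Ltf* stood at 400.8 FPKM, below the 879.8 of the lowest HSD17B1TG mouse, although *Sprr2f* of WT4 exceeded that mouse. In edgeR 0 to 8 of these 26 genes were called higher with 1 mouse left out, 8 of them without WT4, and DESeq2 called 9 higher and 2 lower and limma voom 13 and 2. The shares of all tested genes called higher were 2.05% with all mice, 4.98% without WT4, 4.48% with DESeq2 and 6.28% with limma voom. *C3* (complement) and *Padi2* (a peptidylarginine deiminase) had log2 fold changes of 3.33 and 2.27 (adjusted p = 0.0825 and 0.0707 in edgeR), and the proliferation gene *Myc* -1.25 (adjusted p = 0.0518 in edgeR). Of 18 tested genes induced by progesterone none had a higher fitted level, and 10 were called lower in edgeR, among them *Il13ra2*, *Hand2*, *Msx1* and *Fkbp5*, with log2 fold changes of -7.09, -2.0, -2.88 and -1.65. With 1 mouse left out 1 to 13 of these 18 genes were called lower, 1 without TG4 or TG5 and 13 without WT4. Over all tested genes 335 (1.97%) were called lower with all mice, 38 without TG4, 24 without TG5 and 658 without WT4. The receptor genes *Esr1* and *Pgr* had log2 fold changes of -0.05 and -0.70 (adjusted p = 0.889 and 0.303 in edgeR), and the mouse gene *Hsd17b1* of 0.11 (adjusted p = 0.882 in edgeR).

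Of 20 transcription factors linked to *Sprr* genes, epithelium or estrogen, 1 was called in edgeR, *Prdm1* (a repressor), which was lower (log2 fold change -2.23, adjusted p = 0.0224 in edgeR). No factor of the list was called lower in edgeR without TG2, TG5, WT2, WT3 or WT5, while 2 were called higher without TG1 or WT4, 3 with DESeq2 and 4 with limma voom. Of all tested genes 4.35% were called higher without TG1, 4.98% without WT4, 4.48% with DESeq2 and 6.28% with limma voom. *Stat6* and *Jund*, the latter a subunit of AP-1, passed the adjusted p but not the 2-fold limit, with log2 fold changes of 0.50 and 0.81 (adjusted p = 0.0382 and 0.0404 in edgeR). *Elf3*, an epithelial ETS factor, had 503.8 ± 204.7 FPKM in HSD17B1TG and 98.0 ± 113.8 in WT (SD, n = 5 each, adjusted p = 0.0832 in edgeR). Its r with the mean log2 CPM of the tested members was 0.96 over the 10 mice, and 0.90 after removing the genotype means. *Klf4* and *Grhl3*, factors of epithelial barrier genes, had log2 fold changes of 1.51 and 3.92 (adjusted p = 0.107 and 0.0526 in edgeR).

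The protein-coding genes whose pattern was most like the mean log2 CPM of the tested members were *Slfn2*, *Omp*, *Wsb2*, *Pcgf5*, *D1Ertd622e*, *Aktip*, *Actr1a*, *Src*, *Apol9a* and *Srxn1*. Their Pearson's r lay between 0.97 and 0.99 over 10 mice, and between 0.94 and 0.96 after removing the genotype means, with Spearman's rho between 0.93 and 0.99. Only *Apol9a* of these 10 genes was called, with a log2 fold change of 3.06 (adjusted p = 0.0367 in edgeR). *Omp* had 13.5 ± 7.69 FPKM in HSD17B1TG and 1.98 ± 2.78 in WT, and *Slfn2* 16.01 ± 5.67 and 6.73 ± 3.25 (SD, n = 5 each). These genes were ranked out of all tested genes, so high values of r were selected for.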

How the data were processed

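The authors prepared RNA from whole uterus, sequenced paired ends of 150 bases, mapped them with HISAT2 2.0.5 to the mouse genome (Ensembl annotation of GRCm38) and compared the genotypes with DESeq2. Which program counted the reads, whether by strand and how multiply mapped reads were treated is not given in the sources used here. The authors deposited 1 table of 29268 genes with raw counts per mouse. It also holds the deposited signal, each count divided by a size factor of the mouse, and the deposited FPKM, computed with the listed gene length and a library size proportional to that factor. The authors' fold changes, p-values, called-gene list, GO and KEGG tables were not used. No library was a copy of another. The labels give no batch, litter or day, and nothing says more than that the samples are separate animals.

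The test on raw counts was that of edgeR 4.0.16 (R 4.3.3), with filterByExpr, TMM factors and the robust quasi-likelihood test (Benjamini-Hochberg over the 16993 tested genes). The SE given for edgeR is the absolute log2 fold change divided by the square root of the F statistic of this test. It was calculated back from the test and is not an output of the fit. All 10 mice were used, named by ascending animal number. Total counts were 14817228 to 23271988 per mouse. The sum of the cluster was fitted as 1 further row in place of the members. Log2 CPM used a prior count of 2, and 0.1 CPM was added to both sums of the ratio to epithelial markers. Shares were compared with a two-sided exact permutation test in SciPy. Coding sequences came from GENCODE M21, gene overlaps from the positions in the deposited table and promoters from RefSeq, and motifs were searched on both strands. The alternatives were DESeq2 1.42.0, limma 3.58.1 on log2(FPKM + 1), log2(FPKM + 0.1) or voom with quality weights per mouse, other scalings and filters, and each mouse left out.

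The genes named were the 9 members, the further *Sprr* genes, from other lists up to 4 genes with the smallest p, the 10 most similar genes, and *Esr1*, *Pgr*, *Ltf*, *Elf3*, *Klf4* and *Hsd17b1*. *Ivl*, *Krt13*, *Hoxa10* and *Hoxa11* and the comparison of *Sprr2e* with *Sprr2d* were chosen after values were seen. The members and the lists, written by hand from general knowledge, were chosen with earlier results of these data known. An adjustment of the share tests over the members had been planned and is not given. The fits were tested on simulated counts.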

Additional observations from a re-analysis of the deposited data

How the results depend on the processing

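Called members ranged from 0 to 5 with 1 mouse left out. Without TG2, TG4, TG5, WT1, WT2, WT3 or WT5 the count was 0, and without WT4 it was 5. It was 4 with limma on log2(FPKM + 0.1) and 5 with limma voom with quality weights, and 2 or 3 in the other settings, among them 3 with DESeq2 and, added after seeing the data, 2 with the *Sprr2a* genes as 1 row. The summed counts were called with DESeq2 (log2 fold change 2.22, adjusted p = 0.0323), with limma voom (2.98, adjusted p = 0.0139) and without WT4 (3.50), and ranged from 1.55 to 3.50 with 1 mouse left out. Without *Sprr2f* in the sum, an alternative added after seeing the data, the value was 2.0 and not called. The difference of the cluster from the epithelial markers ranged from 1.13 to 1.79 with 1 mouse left out and moved by less than 1 SD in every alternative. Shares with an exact permutation p under 0.05 were 5 with all mice and 4 to 5 with 1 mouse left out, the share of *Sprr2e* losing it in every such case but that of WT5 and that of *Sprr2a1* gaining it without TG4 or WT4. The difference of the *Sprr2g* share ranged from -12.6 to -1.95 percentage points, the last without WT5. The difference of the *Sprr2f* share turned to -0.0816 percentage points without WT5, over a range of -0.0816 to 10.5 with 1 mouse left out, and that of the *Sprr2h* share to 0.00178 without WT2, over a range of -0.00269 to 0.00178. Summed over the lists outside the cluster, where the 3 called genes that mark the uterus count again among those induced by progesterone, 23 entries were called with all mice, 51 with DESeq2 and 1 to 48 with 1 mouse left out, the highest without WT4. No fold change of a tested member changed its sign under any setting tried. Scaling by library totals shifted the median log2 fold change of all genes to -0.17, and 2 members were called under it too. Over all genes, 348 were called higher and 335 lower, and 923 and 674 with DESeq2. No paired analysis was possible because the labels give no replicate numbers that tie a HSD17B1TG mouse to a WT mouse. With 5 mice per genotype and the spread within each, the members not called cannot be said to be equal.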
